A study of Mus musculus with 16 samples.

Results

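The effect of losing KAT6B on open chromatin was set against the effect of gaining it, region by region, as the difference (KO minus WT C57BL/6) minus (Tg minus WT FVB x BALB/c). The members were autosomal regions, without those on chromosome 14 within 1 Mb of Kat6b: 19245 of 20113 promoters, 20518 of 20792 enhancer regions and 19245 of 20113 gene ends, which are windows just past the transcription end. For enhancer regions that distance was counted from an enhancer region taken to mark Kat6b, described below. After a filter on low counts 19181 promoters, 16576 enhancer regions and 14876 gene ends were tested. All 16 ATAC-seq libraries of the study, 4 per group, entered the contrast: Kat6b-/- (KO) on C57BL/6 with wild type (WT) C57BL/6 as its control, and Tg(Kat6b) (Tg), which overexpresses Kat6b, on FVB x BALB/c with WT FVB x BALB/c as its control. Each library came from neural stem and progenitor cells of the dorsal telencephalon of a separate embryo at E12.5, cultured as neurospheres, which are floating clusters of dividing progenitors. Per the series design, transgenic mice are not viable on C57BL/6, so loss was studied in one background and gain in another, and a difference between loss and gain cannot be told apart from a difference between backgrounds. The sources used here do not give the promoter that drives the transgene, its copy number or the number of founder lines.

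KAT6B transfers acetyl groups to lysines of histone H3, as the catalytic subunit of an assembly that also holds a BRPF scaffold, an ING protein and MEAF6. Acetylated promoters and enhancers tend to be open, and ATAC-seq reads out openness because its transposase inserts adapters where DNA is not wrapped tightly. Regions were sorted by the signs of the loss effect and the gain effect. A region was called opposite where KO and Tg each passed against their own WT with opposite signs and the difference between the effects passed too. It was called shared where both passed with the same sign, and KO-only or Tg-only where a single comparison and the difference passed. Every call used an adjusted p of 0.05 in an edgeR quasi-likelihood fit over all regions of a class.

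Depth and the Tg label were checked first. Total counts over the region classes were 2477475 to 8039884 per library. Mean promoter counts were 3191062 in KO, 2454658 in WT C57BL/6, 4520392 in Tg and 2255758 in WT FVB x BALB/c. Both altered groups thus had more promoter counts than their controls. Depth here means such counts in regions, as total sequenced reads were not among the values used. Enhancer-region counts on chromosome Y were 38.4 ± 3.45 counts per 1000000 (CPM) in KO, 43.0 ± 4.13 in WT C57BL/6, 2.81 ± 4.14 in Tg and 54.1 ± 5.79 in WT FVB x BALB/c (SD, n = 4 each), and in Tg they ran from 0.458 to 9.01. The part of depth in the autosomal results was not tested beyond thinning all libraries to equal depth, and that of the Y signal was not tested. The Y signal was low in every Tg library and in no other group. It, and embryo sex if that sets it, therefore cannot be told apart from the transgene. The Kat6b promoter stood at 3249, 3232, 3477 and 2744 CPM in Tg and at 236, 223, 229 and 231 in WT FVB x BALB/c (log2 change 3.79, SE 0.05, edgeR adjusted p = 5.9e-128). In KO it was not called (log2 change 0.13, edgeR adjusted p = 0.167). The sources used here do not say how far the deletion reaches. A 5015 bp enhancer region that starts at 22366417 on chromosome 14 (mm9) had 0 counts in KO against 402 in WT C57BL/6. It was picked on that chromosome for its 0 counts in KO, so it does not check the KO label or place the deletion. The same region was taken to mark Kat6b when enhancer regions near the gene were left out. The 26 tested promoters of neural stem and progenitor genes had a median level of 90.3 CPM, against 35.7 over all promoters tested and 7.34 for 12 microglia and leukocyte markers.

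At promoters, loss and gain differed at 5763 of 19181 tested (30.0%). The KO effect was the higher at 2443 (12.7%) and the lower at 3320 (17.3%). Most of these were Tg-only: 3095 promoters rose and 2116 fell in Tg, together 27.2% of those tested, and did not pass in KO. KO-only promoters numbered 129 (0.673%), 81 higher and 48 lower. Shared effects were found at 309 promoters (1.61%), 185 higher in both and 124 lower in both, and opposite effects at 138 (0.719%), of which 87 rose in KO and fell in Tg and 51 fell in KO and rose in Tg. A further 5454 promoters passed in Tg and 102 in KO without a called difference, and these were not assigned to either kind. Without KO library 4 or WT C57BL/6 library 4 opposite promoters numbered 86, and shared promoters numbered 180 without KO library 1, 198 without KO library 3 or WT C57BL/6 library 1, and 204 without WT C57BL/6 library 3.

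The background behind these counts was uneven, since far more promoters passed in Tg (57.9%, with 27.3% higher and 30.6% lower) than in KO (2.13% higher and 1.41% lower). Among the 408 promoters that rose in KO, 45.3% also rose in Tg and 21.3% fell in Tg. Among the 270 that fell in KO, 45.9% also fell in Tg and 18.9% rose. Seen from the Tg lists, the same shared promoters were 3.53% of the 5245 rises and 2.11% of the 5867 falls. Same-sign calls thus took a larger share of the KO promoters than opposite-sign calls did. The direction of the shared promoters depended on scaling, and their split was 185 higher and 124 lower with TMM factors, 92 and 179 with library totals, 47 and 116 with offsets that follow abundance, and 130 and 13 with factors taken from gene ends. The split of all called differences turned with it and was 3429 higher and 2260 lower with library totals, 2369 and 1862 with offsets that follow abundance, and 562 and 6790 with gene-end factors. The median difference over all promoters was 0.05 (log2) with TMM factors, 0.14 with library totals and -0.28 with gene-end factors, and the directions given here are relative to TMM scaling.

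**Figure D1:**
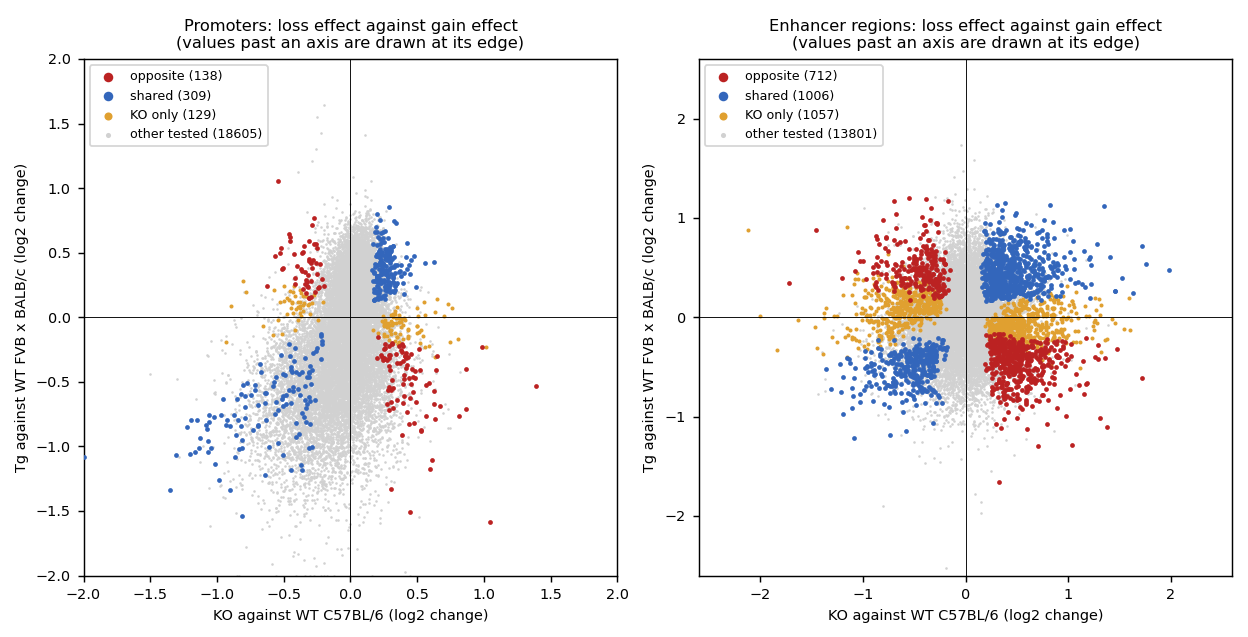
Each point is a tested autosomal promoter (left) or enhancer region (right), with the log2 change of KO against WT C57BL/6 on the x axis and of Tg against WT FVB x BALB/c on the y axis; values past an axis are drawn at its edge. Opposite regions (red; 138 promoters and 712 enhancer regions) lie upper left and lower right, shared regions (blue; 309 and 1006) upper right and lower left, KO-only regions near the x axis, and all others, Tg-only included, are grey.

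The promoter sequences of Ston2, Tnfsf13 and Sucnr1, which lead their groups below, are shown first. Ache, the second member of the group led by Srcin1, is shown for that group. The sequences of Id2, Id3 and Smad6 were added after their values were seen. All are the RefSeq 300 bases from 250 before to 50 after the gene's start (GRCm38.p6), 5′ to 3′ along the gene. Capitals mark GGGCGG or its reverse complement, the core of the GC box that SP-family factors bind.
Ston2, chr12:91786387-91786686, minus strand: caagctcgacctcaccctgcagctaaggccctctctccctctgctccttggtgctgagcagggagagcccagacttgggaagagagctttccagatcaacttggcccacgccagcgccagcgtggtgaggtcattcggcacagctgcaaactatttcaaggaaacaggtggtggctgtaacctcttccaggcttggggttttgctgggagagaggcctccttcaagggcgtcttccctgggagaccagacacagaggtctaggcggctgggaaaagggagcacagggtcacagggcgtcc
Ache, chr5:137288004-137288303, plus strand: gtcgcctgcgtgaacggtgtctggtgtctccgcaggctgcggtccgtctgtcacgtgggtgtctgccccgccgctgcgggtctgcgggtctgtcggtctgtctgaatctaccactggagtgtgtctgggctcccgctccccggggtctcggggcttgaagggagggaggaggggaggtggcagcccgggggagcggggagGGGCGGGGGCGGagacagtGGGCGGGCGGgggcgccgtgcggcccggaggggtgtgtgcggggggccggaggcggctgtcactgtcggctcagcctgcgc
Tnfsf13, chr11:69685505-69685804, minus strand: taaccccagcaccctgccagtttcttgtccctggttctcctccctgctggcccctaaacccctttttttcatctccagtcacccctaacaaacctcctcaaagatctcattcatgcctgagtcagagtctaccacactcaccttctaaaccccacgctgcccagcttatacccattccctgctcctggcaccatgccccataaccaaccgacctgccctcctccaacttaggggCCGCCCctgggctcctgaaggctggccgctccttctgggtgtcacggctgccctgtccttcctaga
Sucnr1, chr3:60081619-60081918, plus strand: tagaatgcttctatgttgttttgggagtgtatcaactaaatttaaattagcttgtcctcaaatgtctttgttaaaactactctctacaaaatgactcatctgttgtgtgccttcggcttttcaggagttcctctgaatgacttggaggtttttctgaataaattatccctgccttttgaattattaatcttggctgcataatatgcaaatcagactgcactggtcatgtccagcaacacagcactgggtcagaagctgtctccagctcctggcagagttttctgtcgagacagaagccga
Id2, chr12:25096043-25096342, minus strand: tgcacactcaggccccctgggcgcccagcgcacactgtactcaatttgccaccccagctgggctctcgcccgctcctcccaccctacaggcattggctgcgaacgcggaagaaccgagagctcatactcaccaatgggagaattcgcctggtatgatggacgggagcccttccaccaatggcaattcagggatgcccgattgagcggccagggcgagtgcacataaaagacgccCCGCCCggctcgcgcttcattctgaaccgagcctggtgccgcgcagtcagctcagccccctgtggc
Id3, chr4:136143572-136143871, plus strand: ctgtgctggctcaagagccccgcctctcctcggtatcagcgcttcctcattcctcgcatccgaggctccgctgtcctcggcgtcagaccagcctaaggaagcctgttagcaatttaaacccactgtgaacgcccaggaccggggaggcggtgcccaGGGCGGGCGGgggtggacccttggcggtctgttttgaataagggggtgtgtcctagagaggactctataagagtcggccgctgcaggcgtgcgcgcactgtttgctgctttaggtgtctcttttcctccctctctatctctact
Smad6, chr9:64022010-64022309, minus strand: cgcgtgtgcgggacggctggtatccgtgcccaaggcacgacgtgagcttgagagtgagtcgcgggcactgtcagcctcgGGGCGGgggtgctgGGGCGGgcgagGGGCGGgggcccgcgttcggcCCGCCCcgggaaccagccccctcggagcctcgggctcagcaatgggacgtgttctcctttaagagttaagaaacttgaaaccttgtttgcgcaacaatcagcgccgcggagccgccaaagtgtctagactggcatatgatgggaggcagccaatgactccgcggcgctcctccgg
Ston2, which rose in KO and fell in Tg, and Sucnr1, which fell in both, hold no GGGCGG and 8 and 3 CpG dinucleotides. Ache, Id2, Id3 and Smad6, which fell in KO and rose in Tg, hold 4, 1, 2 and 4 matches and 30, 21, 19 and 31 CpG. Tnfsf13, which rose in both, holds 1 match and 5 CpG, fewer CpG than the median of its group.

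Over whole groups, base composition differed with the direction of the change in Tg. GGGCGG, searched on both strands with overlaps counted, stood in 46.9% of promoters that rose in KO and fell in Tg, in 85.0% of those that fell in KO and rose in Tg, in 72.3% of those higher in both and in 33.7% of those lower in both, against 49.6% of all 15257 tested promoters with a sequence. The median number of CpG in these groups, in the same order, was 12, 21.5, 26 and 8, against 15 over all. These shares rest on 64, 40, 148 and 101 promoters with a sequence, of 87, 51, 185 and 124. Tg-only promoters held it at 76.5% of rises (2595 with a sequence, median 25 CpG) and 40.4% of falls (1654 with a sequence, median 10 CpG), so the trait was not particular to the opposite and shared groups. Accessibility ran with base composition: GGGCGG was held by 7.73% of promoters in the lowest quartile of mean level and by 77.0% in the highest. The median of the mean level was 46.8, 72.4, 115 and 21.0 CPM in the groups in that order, and the part of level in the shares was not tested.

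Promoters that rose in KO and fell in Tg were led by Ston2, Dnajc5b, Lrrc3b, Scn7a and Zpld1. Leading regions, here and below, were picked among those whose libraries did not overlap in each called comparison. Their separation was thus set by the choice and adds no support. Ston2, which encodes an endocytic adaptor for synaptic vesicle proteins, stood at 30.7, 32.5, 33.7 and 28.6 CPM in KO and at 18.1, 14.7, 21.2 and 17.4 in WT C57BL/6. In Tg it stood at 18.7, 16.1, 20.7 and 20.4, and in WT FVB x BALB/c at 29.7, 34.6, 33.1 and 33.5. Every KO library lay above every WT C57BL/6 library and every Tg library below every WT FVB x BALB/c library (KO log2 change 0.81, SE 0.13; Tg -0.77, SE 0.12; difference 1.58, SE 0.18, edgeR adjusted p = 4.5e-13). Scn7a, the gene of the sodium-sensing channel Nax, had 28.2, 33.5, 27.9 and 30.6 CPM in KO, against 18.9, 16.8, 22.1 and 20.9 in WT C57BL/6. It had 18.7, 16.1, 18.6 and 23.2 in Tg, against 43.7, 42.4, 38.3 and 40.4 in WT FVB x BALB/c. Neither pair of groups overlapped (KO 0.61, SE 0.13; Tg -1.10, SE 0.12; difference 1.71, SE 0.17, edgeR adjusted p = 7.7e-16), and the Tg change was the larger in size (sum of effects -0.49, edgeR adjusted p = 0.016). Zpld1 (0.59 in KO, -1.17 in Tg), Lrrc3b (0.63 and -0.79) and Dnajc5b (0.67 and -0.69) also separated in both comparisons. At Lrrc3b and Scn7a the KO change did not pass after libraries were thinned to equal depth, and at Dnajc5b the Tg change did not with gene-end factors.

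Promoters that fell in KO and rose in Tg were led by Srcin1, Ache, Anxa2, Ndrg2 and Cercam. Srcin1, which encodes a SRC kinase inhibitor found at synapses, had 22.7, 27.2, 25.2 and 32.4 CPM in KO, against 37.0, 38.4, 41.5 and 40.04 in WT C57BL/6. It had 45.4, 52.8, 57.3 and 49.1 in Tg, against 21.2, 24.9, 24.4 and 32.2 in WT FVB x BALB/c. KO lay wholly below and Tg wholly above its control (KO log2 change -0.54, SE 0.12; Tg 1.05, SE 0.11; difference -1.59, SE 0.16, edgeR adjusted p = 3.9e-16). Ache, which encodes acetylcholinesterase, had 39.0, 29.2, 31.4 and 30.3 CPM in KO, against 44.3, 43.2, 51.1 and 50.3 in WT C57BL/6. It had 43.0, 39.1, 45.0 and 39.5 in Tg, against 26.9, 31.4, 32.2 and 28.1 in WT FVB x BALB/c. The effects were close in size (-0.53 in KO and 0.50 in Tg; difference -1.03, SE 0.15, edgeR adjusted p = 7.7e-09). Anxa2, a calcium-dependent membrane-binding protein gene (-0.57 and 0.47), Ndrg2, expressed in astrocytes and radial glia (-0.46 and 0.65), and Cercam (-0.45 and 0.62) had the same signs and separated in both comparisons. The KO fall of Ache did not pass after thinning, and those of Ndrg2 and Cercam did not pass after thinning or with gene-end factors.

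**Figure D2:**
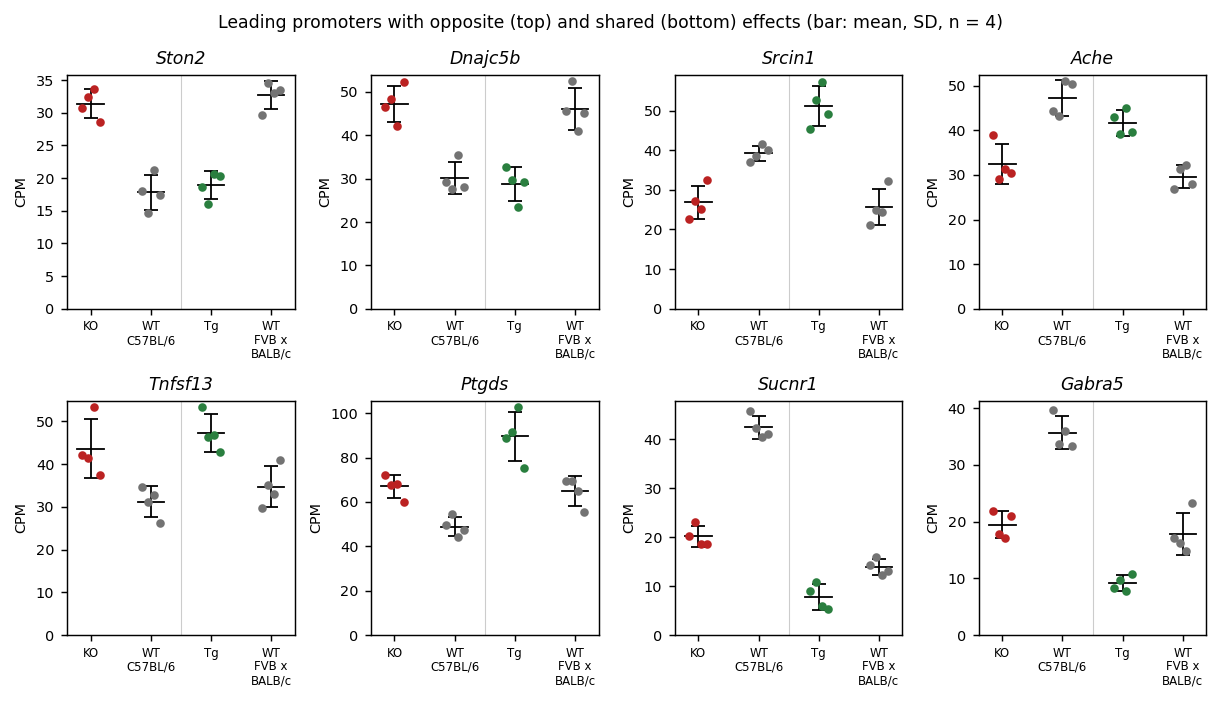
Promoter accessibility in CPM for the first 2 leading promoters of each group; each point is a library, bars are the mean and SD of 4 libraries, and the line divides C57BL/6 (left) from FVB x BALB/c (right). At Ston2 and Dnajc5b KO lies above and Tg below its WT, at Srcin1 and Ache the reverse, and at Tnfsf13, Ptgds, Sucnr1 and Gabra5 both altered groups moved the same way.

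Over all 138 opposite promoters the median absolute log2 change was 0.37 in KO and 0.41 in Tg. The sum of the effects, which tests whether the opposite sizes differed, passed at 23, with Tg the larger at 19 of them. Changes were small, and 7 of the 138 reached 2-fold in either comparison. In 89 of the 138 the libraries did not overlap in either comparison, against 960 of all 19181 promoters. Groups did not overlap at 9.73% of promoters in KO and 45.7% in Tg. The 138 passed in both comparisons by definition, which favours such separation, so the count adds no support. The opposite promoters also stood apart in the WT libraries. Of the 87 that rose in KO and fell in Tg, 70 (80.5%) had a lower mean in WT C57BL/6 than in WT FVB x BALB/c, and of the 51 that fell in KO and rose in Tg, 6 (11.8%) did, against 52.8% of all tested. All 4 WT C57BL/6 libraries lay below all 4 WT FVB x BALB/c libraries at 39.1% of the first group and above them at 72.5% of the second, against 7.65% and 11.3% of all promoters. Both effects are measured from these WT libraries, so these shares are not independent of the calls.

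Id1, Id2, Id3 and Smad6, genes switched on by bone morphogenetic protein (BMP) signalling, fell in KO and rose in Tg, while Id4 and Smad7, which it also switches on, rose in Tg only. These 6 genes were grouped after their values were seen, and no list of BMP targets was tested. BMP ligands bind paired receptors that phosphorylate SMAD1 and SMAD5, which with SMAD4 switch on the Id genes and the feedback inhibitors Smad6 and Smad7. ID proteins block basic helix-loop-helix factors and hold neural progenitors back from differentiation. Id1 had 85.8, 95.1, 78.6 and 78.5 CPM in KO, against 115.6, 116.1, 132.2 and 120.1 in WT C57BL/6. It had 67.1, 74.5, 71.4 and 63.3 in Tg, against 62.9, 43.2, 49.2 and 56.1 in WT FVB x BALB/c. KO lay below all its controls and Tg above all its own (KO log2 change -0.51, SE 0.07; Tg 0.38, SE 0.09; difference -0.89, SE 0.11, edgeR adjusted p = 2.0e-11). The Id1 level was lower in both FVB x BALB/c groups than in either C57BL/6 group.

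Id3 had 69.7, 70.9, 70.5 and 73.5 CPM in KO, against 93.6, 101.9, 92.1 and 101 in WT C57BL/6. It had 95.4, 91.4, 93.9 and 78.8 in Tg, against 59.2, 61.9, 56.6 and 60.9 in WT FVB x BALB/c. Neither pair overlapped (KO -0.45, SE 0.08, Tg 0.59, SE 0.08, difference -1.04, SE 0.11, edgeR adjusted p = 2.4e-15). Every KO library also lay above every WT FVB x BALB/c library, while the range of Tg overlapped that of WT C57BL/6. Smad6 had 77.5, 76.5, 89.4 and 81.4 CPM in KO, against 95.9, 106.2, 97.2 and 102 in WT C57BL/6. It had 69.5, 70.3, 72.9 and 64.6 in Tg, against 42.1, 48.5, 48.7 and 45.9 in WT FVB x BALB/c. The groups were again apart in both comparisons (KO -0.31, SE 0.07; Tg 0.59, SE 0.09; difference -0.90, SE 0.11, edgeR adjusted p = 1.8e-11). Id2 had 130.9, 115.6, 132.8 and 109.7 CPM in KO, against 156, 149.8, 149.2 and 129 in WT C57BL/6. It had 125, 120.1, 132.5 and 123 in Tg, against 78.8, 90.1, 91.8 and 76.7 in WT FVB x BALB/c. KO and its control overlapped, and Tg lay above its own (KO -0.26, SE 0.06; Tg 0.57, SE 0.07; difference -0.82, SE 0.10, edgeR adjusted p = 6.9e-13). The KO fall of Id2 did not pass without KO library 4, without WT C57BL/6 library 1, after thinning to equal depth or with gene-end factors, and Id3 and Smad6 also became Tg-only with gene-end factors. Id1 became KO-only with offsets that follow abundance.

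The fourth family member, Id4, rose in Tg (0.34, edgeR adjusted p = 3.0e-06) and had -0.09 in KO (edgeR adjusted p = 0.469), a called difference of -0.43 (edgeR adjusted p = 5.6e-05). The feedback inhibitor gene Smad7 likewise rose in Tg (0.57) and had 0.12 in KO (edgeR adjusted p = 0.329), a called difference of -0.46 (edgeR adjusted p = 2.4e-05). At gene ends Id2 was opposite as well. Its end had 104.4, 104.6, 98.6 and 153.1 CPM in KO, against 199.2, 218.4, 219.2 and 157.7 in WT C57BL/6, and 127.2, 119.7, 147.7 and 132 in Tg, against 106.7, 76.5, 73.2 and 67.8 in WT FVB x BALB/c. Groups did not overlap in either comparison (KO -0.76, Tg 0.67, difference -1.42, SE 0.26, edgeR adjusted p = 1.4e-05). Of the 109 opposite promoters whose gene end was tested, Id2 was the single gene with opposite effects at both. The Tg rise at the Id2 end was lost with library totals, with offsets that follow abundance, after thinning and without 3 single libraries (Tg library 3 and WT FVB x BALB/c libraries 2 and 3).

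Ligands, receptors, signal transducers and antagonists of the pathway took several patterns. Of 27 BMP and WNT signalling promoters, Smad6 and Smad7 included, 4 differed upward, 10 downward and 13 were not called (51.9% called, against 30.0% of all promoters), with a median difference of -0.10, against 0.05 over all promoters tested. The median level of the list was 64.8 CPM, and in the quartile of mean level from 35.7 to 75.4 CPM 729 of 4795 promoters differed upward and 1101 downward. The called split of the list was 6 upward and 7 downward with library totals, 5 and 8 with offsets that follow abundance, and 0 and 13 with gene-end factors. The ligand gene Bmp7 had 83.9, 82.8, 72.0 and 77.0 CPM in KO, against 61.3, 66.5, 62.2 and 53.5 in WT C57BL/6, and 83.5, 87.2, 88.8 and 90.1 in Tg, against 113.6, 108, 85.7 and 89.7 in WT FVB x BALB/c. KO lay above its control, and Tg overlapped its own (KO 0.39, Tg -0.21, difference 0.59, edgeR adjusted p = 3.5e-06). Bmp7 became KO-only without WT FVB x BALB/c library 1 or 2, with DESeq2 and after thinning, and its difference was lost with gene-end factors (0.25, adjusted p = 0.22). Among receptor genes Bmpr1b was KO-only and higher (0.35 in KO, -0.15 in Tg, edgeR adjusted p of the difference = 3.4e-04), while Bmpr1a (0.61) and Bmpr2 (0.53) were Tg-only rises. The signal transducer Smad5 rose in both (0.23 and 0.38), and the secreted antagonist Nog in Tg only (0.51). The antagonist Grem1 fell in both (-0.34 and -0.32). Unlike Bmp7, the calls of Bmpr1b, Bmpr1a, Bmpr2, Smad5, Nog and Grem1 were not followed under the alternative settings. On the WNT side the ligand gene Wnt5a rose in both (0.29 and 0.49), Ctnnb1, which encodes beta-catenin, rose in Tg only (0.82), and the receptor gene Fzd8 was opposite by small amounts (0.21 and -0.15), held in 1 of 8 alternative settings. The KO rise of Wnt5a did not pass with offsets that follow abundance, gene-end factors, DESeq2 or thinning, nor without KO library 1 or 3 or WT C57BL/6 library 2 or 3.

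**Figure D3:**
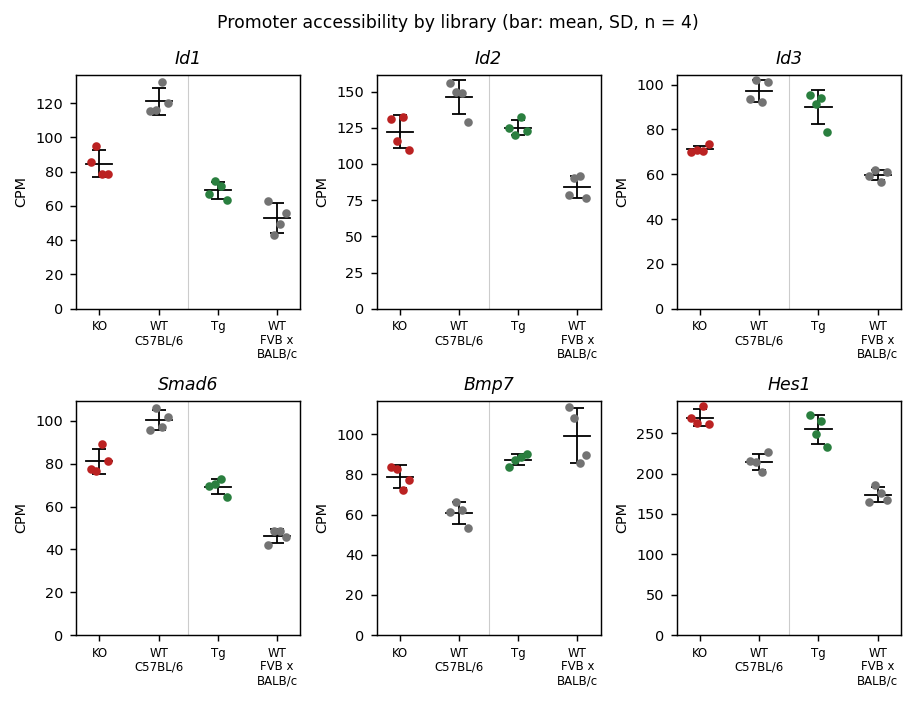
Promoter accessibility in CPM of 4 genes switched on by BMP signalling (Id1, Id2, Id3, Smad6), a BMP ligand gene (Bmp7) and the Notch effector gene Hes1; points are libraries, bars the mean and SD of 4, and the line divides C57BL/6 (left) from FVB x BALB/c (right). Id1, Id2, Id3 and Smad6 have lower means in KO and higher means in Tg than in their WT, Bmp7 the reverse, and Hes1 is higher in both.

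Promoters higher in both KO and Tg were led by Tnfsf13, Ptgds, Plxna4, Optc and Clip1. Tnfsf13, the gene of the cytokine APRIL, had 42.1, 41.4, 53.4 and 37.3 CPM in KO, against 34.7, 31.1, 32.7 and 26.2 in WT C57BL/6. It had 53.4, 46.3, 46.7 and 42.7 in Tg, against 29.7, 35.1, 33.1 and 41.1 in WT FVB x BALB/c. Neither pair overlapped, and the changes were close (0.47 in KO and 0.48 in Tg). Ptgds, which encodes prostaglandin D synthase, had 72.2, 67.6, 68.2 and 60.1 CPM in KO, against 49.7, 54.4, 44.2 and 47.5 in WT C57BL/6, and 88.9, 91.4, 102.7 and 75.4 in Tg, against 69.6, 69.7, 64.8 and 55.4 in WT FVB x BALB/c (0.45 and 0.44). Plxna4, a semaphorin co-receptor gene of axon guidance, rose by 0.43 in KO and 0.58 in Tg, and Clip1, a microtubule plus-end gene, by 0.41 and 0.47. None of these differences between effects was called (edgeR adjusted p = 0.987, 0.952, 0.392 and 0.736 for Tnfsf13, Ptgds, Plxna4 and Clip1). Optc (0.56 and 0.42) and Clip1 remained shared under every alternative setting, while Tnfsf13, Ptgds and Plxna4 did not pass in KO after thinning, and Tnfsf13 also not without KO library 3 or WT C57BL/6 library 4.

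Shared rises were small and at the most accessible promoters. None of the 185 reached 2-fold, and 145 of them lay in the highest quartile of mean level. The difference was called at 39 of the 185, and at each of these the Tg rise was the larger. Hes1, which keeps progenitors undifferentiated downstream of Notch, was among them. It had 268.5, 262.4, 284.2 and 261 CPM in KO, against 215.3, 214.5, 202.2 and 226.4 in WT C57BL/6, and 273.2, 249.1, 265.3 and 232.7 in Tg, against 165.4, 185.8, 175.8 and 167.7 in WT FVB x BALB/c. Both altered groups stood wholly above their WT (0.32, SE 0.05, and 0.55, SE 0.06). The called difference of -0.23 (edgeR adjusted p = 0.0147) was lost with library totals (-0.14, adjusted p = 0.13), with offsets that follow abundance (-0.04, 0.74), after thinning (-0.19, 0.15) and without Tg library 1 (-0.20, 0.054). Chromatin genes with shared rises included the acetyltransferase gene Crebbp (0.30 and 0.42), Arid1b of the BAF remodelling complex (0.26 and 0.40) and the H3K4 methyltransferase gene Kmt2c (0.21 and 0.50), and cell cycle genes with shared rises were Ccne2 (0.26 and 0.34) and E2f2 (0.34 and 0.24). E2f2 was shared in 4 of 8 alternative settings and 7 of 16 leave-one-out fits, and was lost with library totals, offsets that follow abundance, DESeq2 and thinning. Ccne2 was shared in 5 of 8 settings, and Crebbp, Arid1b and Ccne2 did not pass in KO after thinning. The KO rise of Arid1b was also lost with gene-end factors and without WT C57BL/6 library 3 or 4, and that of Kmt2c with offsets that follow abundance, with gene-end factors and without KO library 1 or 3 or WT C57BL/6 library 3 or 4.

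Promoters lower in both were led by Sucnr1, Gabra5, Bbox1, Car10 and Lrrc38. Sucnr1, which encodes the succinate receptor, had 20.2, 23.2, 18.6 and 18.7 CPM in KO, against 45.8, 42.3, 40.5 and 41.1 in WT C57BL/6. It had 9.07, 10.9, 5.92 and 5.31 in Tg, against 14.2, 15.9, 12.2 and 13.0 in WT FVB x BALB/c. Neither pair overlapped (-1.07, SE 0.12, and -0.87, SE 0.19). Gabra5, a GABA receptor subunit gene, had 21.9, 17.9, 17.0 and 21.0 CPM in KO, against 39.7, 33.7, 35.9 and 33.3 in WT C57BL/6, and 8.30, 9.66, 7.82 and 10.8 in Tg, against 17.1, 16.3, 14.8 and 23.3 in WT FVB x BALB/c (-0.86 and -0.91). Both loci had lower levels in FVB x BALB/c than in C57BL/6 within WT and within the altered groups. Bbox1, the last enzyme of carnitine synthesis (-0.73 and -0.87), Car10 (-0.70 and -0.83) and Lrrc38 (-0.69 and -0.68) also separated in both comparisons, and no leading member of the group had a called difference. The KO falls of Bbox1 and Car10 did not pass after thinning, nor did the Tg fall of Lrrc38 with gene-end factors. The synaptic vesicle gene Syt1 (-0.43 and -0.34) and the forebrain gene Six3 (-0.52 and -0.29) fell in both as well. Six3 was shared in 3 of 8 alternative settings: its Tg fall did not pass with RLE factors, offsets that follow abundance, gene-end factors, DESeq2 or thinning, nor without Tg library 2 or WT FVB x BALB/c library 1 or 2. Syt1 was no longer shared with gene-end factors. Of 1102 tested olfactory receptor promoters 12 fell in both, and 138 differed upward and 1 downward (12.6% called, against 30.0% of all promoters), with 138 Tg-only falls. With offsets that follow abundance 23 of the 1102 differed upward and 2 downward. These sit at the floor of the assay (median 5.08 CPM), and reads of close paralogs can be shared among them. In the lowest quartile of mean level (up to 8.81 CPM) 405 of all 4796 promoters differed upward and 10 downward.

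One-sided effects had other members. Arhgef2, a RHOA exchange factor gene, had 117.6, 115.3, 108 and 115.5 CPM in KO, against 77.8, 83.3, 79.7 and 74.1 in WT C57BL/6, and 21.3, 31.2, 25.8 and 26.99 in Tg, against 28.5, 29.3, 30.5 and 28.7 in WT FVB x BALB/c. KO lay above its control and Tg overlapped its own, at a lower level in both FVB x BALB/c groups (0.54 and -0.15; difference 0.69, SE 0.14, edgeR adjusted p = 1.9e-05). The axon outgrowth gene Fez1 (0.76 and 0.07) and Flnc, a muscle filamin gene (0.59 and -0.22), were KO-only rises. The differences at Arhgef2, Fez1 and Flnc were lost with gene-end factors (adjusted p = 0.1, 0.073 and 0.057), and Arhgef2 and Flnc became opposite with library totals. KO-only falls were led by Lcat (-0.81 and 0.28), the tubulin-binding gene Stmn4 (-0.94 and -0.19) and Scrn1 (-0.57 and 0.21). Lcat and Scrn1 became opposite with offsets that follow abundance and with gene-end factors, Lcat also with RLE factors and without Tg library 1 or 4, and Scrn1 was not called after thinning.

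Tg-only rises included the RNA-binding neuronal gene Elavl3, which had 29.6, 31.5, 36.8 and 28.9 CPM in Tg, against 19.9, 20.0, 15.2 and 15.1 in WT FVB x BALB/c (0.82). In KO it had 27.4, 26.5, 25.9 and 23.9, against 32.7, 29.8, 31.3 and 35.4 in WT C57BL/6. KO lay wholly below its control there too, but the change of -0.32 did not pass (edgeR adjusted p = 0.112), and the difference was -1.14 (SE 0.18, edgeR adjusted p = 4.1e-08). Svop was another Tg-only rise (0.88), and H2-M3 (-1.34), Fam71f1 (-1.11) and C2cd4d (-0.98) were Tg-only falls. C2cd4d became opposite with offsets that follow abundance, with gene-end factors and without KO library 3, Tg library 4 or WT FVB x BALB/c library 1. H2-M3 and Ccl21b (1.41) belong to families with close copies and are uncertain as to the gene.

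Gene lists that define the cells moved mostly with gain. Of 26 neural stem and progenitor promoters 16 differed downward, 4 upward and 6 were not called (76.9% called, against 30.0% of all promoters), and 13 were Tg-only, 3 opposite, 1 shared and 2 KO-only. Sox1 (0.15 in KO and 1.06 in Tg), Sox2 (0.13 and 0.81), Sox9 (-0.06 and 0.63) and the intermediate filament gene Nes (0.10 and 0.63) were Tg-only rises, while the patterning genes Nr2f1 (0.40 and -0.00) and Dmrta2 (0.37 and -0.13) were KO-only rises. General housekeeping promoters did so too: 14 of 19 differed downward and none upward (73.7% called), for example Polr2a (0.12 and 0.93). Of 14 cell cycle inhibitor and stress promoters 9 differed downward and 1 upward (71.4% called). Among them Gadd45b (0.02 and 0.68) and the p53 gene Trp53 (0.02 and 0.67) were Tg-only, and Cdkn1a, the p21 gene, was KO-only and lower (-0.43 and 0.20, edgeR adjusted p of the difference = 0.0019). In the highest quartile of mean level (from 75.4 CPM) 365 of 4795 promoters differed upward and 2072 downward. In the next quartile (35.7 to 75.4 CPM) 729 of 4795 differed upward and 1101 downward, so both were called more often than all promoters. The progenitor, housekeeping and stress lists all held highly accessible promoters, with median levels of 90.3, 74.1 and 108 CPM, and the part of level in their shares was not tested. Their median differences of -0.29, -0.45 and -0.45 stayed negative under each scaling tried, from -0.15 to -0.63, from -0.35 to -0.79 and from -0.27 to -0.79 in that order, while the median over all promoters ranged from -0.28 with gene-end factors to 0.14 with library totals.

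Other lists had more upward than downward calls, against 12.7% upward and 17.3% downward over all promoters. Of 22 neurogenesis and neuronal promoters (median 26.3 CPM) 8 differed upward and 3 downward (50% called), with Neurod4 (-0.08 in KO and -1.01 in Tg), Neurod6 (-0.02 and -0.94) and Tbr1 (0.05 and -0.81) as Tg-only falls and the neuronal tubulin gene Tubb3 as a KO-only fall (-0.38 and 0.21). Of 39 HOX promoters (median 9.70 CPM) 12 differed upward and none downward (30.8% called, near the 30.0% of all promoters). Of 380 numbered zinc finger promoters, at a median of 51.3 CPM above that of all promoters, 127 differed upward and 40 downward (43.95% called). Of 28 cell cycle and DNA replication promoters (median 81.3 CPM) 5 differed upward and 1 downward (21.4% called, below all promoters), but 0 and 12 with gene-end factors. With gene-end factors the neurogenesis and zinc finger lists turned to 3 upward and 6 downward and to 44 and 102, and of the HOX promoters 2 differed upward there and with offsets that follow abundance. Among markers of other cell types 4 of 10 endothelial, 4 of 12 mesenchymal and meningeal, 3 of 12 microglial and 2 of 8 erythroid promoters differed upward, and a single mesenchymal one, Prrx1, differed downward. The shares called were 40%, 41.7%, 25% and 25% in that order, so those of the microglial and erythroid lists lay below that of all promoters. Fewer promoters of low level were called. In the second quartile of mean level (8.82 to 35.7 CPM) 944 of 4795 promoters differed upward and 137 downward. In the lowest quartile 405 of 4796 differed upward and 10 downward, and the part of level in the lists was not tested. The median difference of the microglial list was 0.24, but -0.13 with offsets that follow abundance and -0.09 with gene-end factors, that of the mesenchymal list was 0.27, but -0.06 with gene-end factors, and the endothelial and erythroid medians stayed positive under each scaling. The endothelial factor gene Erg (0.46 and -0.40) and the pericyte and meningeal factor gene Tbx18 (0.28 and -0.57) were opposite, though Tbx18 was so in 4 of 8 alternative settings and 11 of 16 leave-one-out fits and Erg in 5 of 8 and 13 of 16. Erg lost the call with offsets that follow abundance, gene-end factors and thinning, and without KO library 2, WT C57BL/6 library 4 or WT FVB x BALB/c library 1. Summed endothelial levels were 189.9 to 209 CPM in KO, 183 to 208 in WT C57BL/6, 145 to 169 in Tg and 195 to 215 in WT FVB x BALB/c, and summed mesenchymal levels 449.9 to 497 CPM in KO, 466 to 501 in WT C57BL/6, 336 to 359.8 in Tg and 405 to 447 in WT FVB x BALB/c. Summed microglial levels were 102 to 123 CPM in KO, 111 to 117 in WT C57BL/6, 96.8 to 120.3 in Tg and 121 to 157 in WT FVB x BALB/c, and summed erythroid levels 122 to 146, 113 to 143, 106 to 113 and 149.7 to 171 in the same order. Fewer cells of a type and less openness per cell cannot be told apart in these bulk libraries, and the part of other cell types in the results was not tested.

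**Figure D4:**
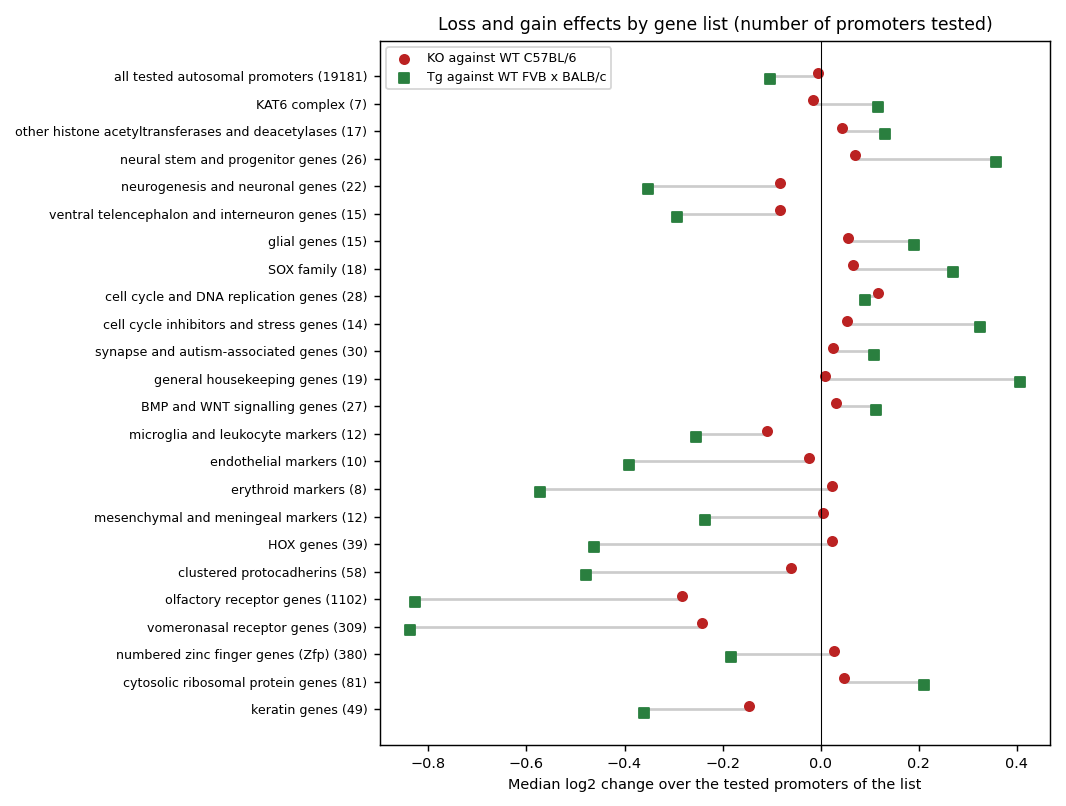
Median log2 change over the tested promoters of each gene list (number tested in brackets), for KO against WT C57BL/6 (red circles) and Tg against WT FVB x BALB/c (green squares). With TMM factors, KO medians lie between -0.28 and 0.12, and Tg medians between -0.84 and 0.41.

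Direction followed level at promoters. The median difference was 0.40 in the lowest quartile of mean level, 0.22 in the second, -0.10 in the next and -0.19 in the highest. The gradient was the larger in Tg, whose median change was -0.61 in the lowest quartile and 0.25 in the highest, against -0.21 and 0.05 for KO. Across all tested promoters the KO and Tg changes had a Spearman correlation of 0.38, but within quartiles of level it was 0.04 to 0.18. Promoters are not independent replicates and share each library's depth and base composition, so these are descriptions. The 124 shared falls and 185 shared rises followed this gradient, with 80 of the falls in the lower 2 quartiles and 184 of the rises in the upper 2. Opposite promoters that rose in KO were 34, 33 and 20 in the quartiles above the lowest, in rising order.

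**Figure D5:**
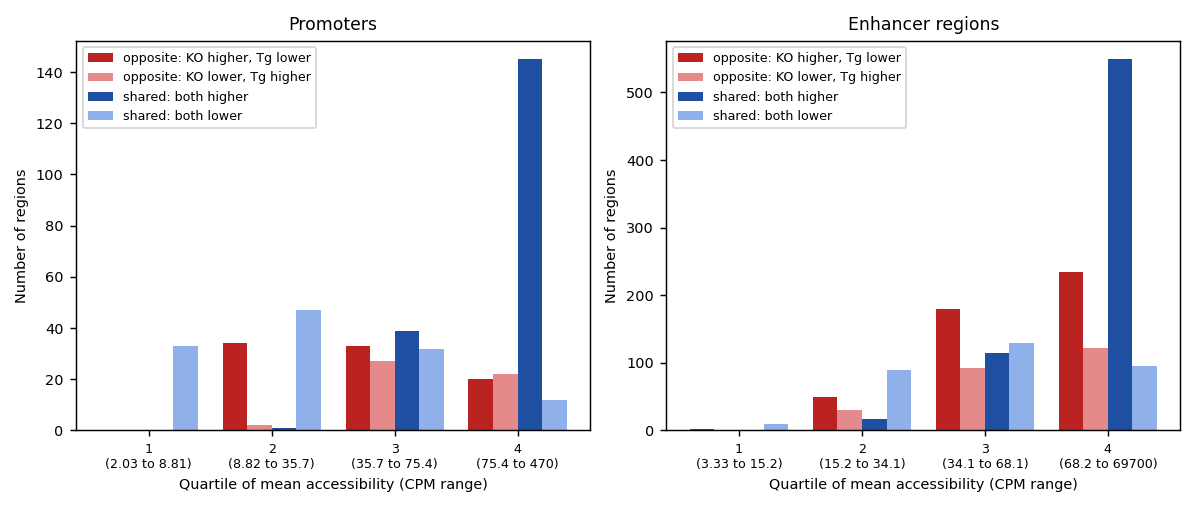
Number of opposite and shared regions by quartile of mean accessibility (CPM range under each quartile), for promoters (left) and enhancer regions (right). At promoters 145 shared rises lie in the highest quartile and 33 shared falls in the lowest, and at enhancer regions each group has few members in the lowest quartile.

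Enhancer regions, which carry H3K4me1 and H3K27ac and have their mm9 start as a name, held more opposite and shared effects than promoters. The difference was called at 4641 of 16576 (28.0%), 2266 higher (13.7%) and 2375 lower (14.3%). Opposite effects were found at 712 (4.3%), 466 higher in KO and lower in Tg and 246 the reverse. Shared effects were found at 1006 (6.07%), 682 higher and 324 lower, and KO-only and Tg-only effects at 1057 (6.38%) and 2349 (14.2%). In KO 12.3% rose and 9.09% fell, and in Tg 18.9% rose and 15.7% fell. More enhancer regions than promoters were called in KO (21.4% against 3.53%), which leaves more to be opposite or shared. Of the KO rises 33.5% also rose in Tg and 22.9% fell, against 45.3% and 21.3% at promoters. Of the KO falls 21.5% also fell in Tg and 16.3% rose, against 45.9% and 18.9% at promoters. From the Tg side, 21.7% of rises and 12.4% of falls were shared. As at promoters, scaling set the balance: shared regions were 519 higher and 428 lower with library totals, 332 and 436 with offsets that follow abundance and 1091 and 53 with gene-end factors, and with gene-end factors opposite regions were 162 and 220 and called differences 1193 higher and 2916 lower.

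The leading opposite region was a 1225 bp region at 59032508 on chromosome 18 (mm9). It had 31.6, 40.3, 30.6 and 39.4 CPM in KO, against 11.2, 15.5, 12.4 and 15.4 in WT C57BL/6, and 17.6, 13.8, 20.1 and 21.0 in Tg, against 34.0, 39.5, 44.6 and 41.4 in WT FVB x BALB/c. The groups were far apart in both backgrounds, with KO near WT FVB x BALB/c and Tg near WT C57BL/6 (KO log2 change 1.37, SE 0.18; Tg -1.10, SE 0.15; difference 2.47, SE 0.23, edgeR adjusted p = 1.7e-18). A 1875 bp region at 63252419 on chromosome 8 had 63.1, 79.4, 77.1 and 75.9 CPM in KO, against 29.0, 31.8, 33.2 and 25.5 in WT C57BL/6, and 42.3, 30.4, 38.1 and 48.6 in Tg, against 87.0, 83.2, 81.4 and 64.3 in WT FVB x BALB/c (1.31 and -1.01; difference 2.32, edgeR adjusted p = 1.2e-27). A 2001 bp region at 24950276 on chromosome 15 was opposite in the same direction, with a difference of 1.98 (SE 0.19, edgeR adjusted p = 3.3e-18).

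In the reverse direction, a 2093 bp region at 123176046 on chromosome 2 had 30.2, 27.03, 31.9 and 29.5 CPM in KO, against 59.4, 89.4, 85.0 and 90.9 in WT C57BL/6. It had 50.8, 41.7, 54.1 and 46.3 in Tg, against 27.6, 19.4, 29.0 and 29.9 in WT FVB x BALB/c. Neither pair overlapped (-1.45 and 0.88; difference -2.33, SE 0.19, edgeR adjusted p = 3.1e-24). Near it on the chromosome, a region of 1768 bp at 123299911 was KO-only, with 22.3, 19.9, 15.3 and 21.0 CPM in KO, against 83.1, 75.4, 78.1 and 82.6 in WT C57BL/6, and 36.7, 51.7, 42.6 and 39.9 in Tg, against 43.0, 34.0, 46.7 and 47.1 in WT FVB x BALB/c (-2.00 and 0.01). Regions at 53930322 on chromosome 19 (1935 bp; -0.87 and 0.82) and 57710074 on chromosome 9 (2001 bp; -0.81 and 0.98) were opposite as well.

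The WT libraries divided the opposite enhancer regions more sharply than the promoters. Of the 466 that rose in KO and fell in Tg, 415 (89.1%) had a lower mean in WT C57BL/6 than in WT FVB x BALB/c, and of the 246 that fell in KO and rose in Tg 13 (5.28%) did, against 51.2% of all tested. All WT C57BL/6 libraries lay below all WT FVB x BALB/c libraries at 68.5% of the first group (15.7% of all tested) and above them at 77.2% of the second (16.8%). As at promoters, both effects are measured from these libraries. The median absolute changes were 0.46 in KO and 0.44 in Tg, the sum of effects passed at 138 of the 712, and 40 reached 2-fold in either comparison. In 435 of the 712 the libraries did not overlap in either comparison. Groups did not overlap at 21.6% of enhancer regions in KO and 29.4% in Tg. As at promoters, the calls themselves favour such separation, so the count adds no support. Opposite effects took 3.15% to 5.67% of the tested enhancer regions of each autosome. At promoters the share was 0 of 680 on chromosome 19 and 1 of 983 (0.102%) on chromosome 8, and 12 of 603 (1.99%) on chromosome 12, against 0.719% over all autosomes.

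Among shared enhancer regions, a 1595 bp region at 30741605 on chromosome 2 had 58.9, 60.1, 66.5 and 64.4 CPM in KO, against 16.5, 31.0, 30.9 and 20.8 in WT C57BL/6, and 132.9, 110.5, 124.1 and 108.7 in Tg, against 60.5, 49.9, 54.5 and 50.5 in WT FVB x BALB/c. It was higher in every altered library than in its controls (1.35 and 1.12). A 2001 bp region at 4655771 on chromosome 13 had 23.2, 24.8, 24.6 and 24.0 CPM in KO, against 54.1, 53.9, 64.9 and 49.9 in WT C57BL/6, and 20.1, 16.6, 18.02 and 18.6 in Tg, against 31.3, 46.5, 34.0 and 32.2 in WT FVB x BALB/c (-1.20 and -0.97). The difference was called at 177 of the 682 shared rises, with Tg the larger at 99, and at 32 of the 324 shared falls, with Tg the larger at 13.

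Leading one-sided enhancer regions were as large. A 2229 bp region at 80691809 on chromosome 2 had 135, 139, 138.9 and 131.8 CPM in KO, against 40.9, 42.1, 47.2 and 48.1 in WT C57BL/6, and 197.3, 171.7, 184.8 and 178 in Tg, against 206.4, 193.4, 190.5 and 209 in WT FVB x BALB/c (1.61 and -0.13; difference 1.73, SE 0.12, edgeR adjusted p = 3.1e-29). KO stood between WT C57BL/6 and the FVB x BALB/c groups. The region became opposite with library totals, with offsets that follow abundance and without Tg library 1. A 1713 bp region at 55392758 on chromosome 7 was Tg-only, with 45.3, 51.7, 45.1 and 59.3 CPM in Tg, against 12.7, 15.95, 19.1 and 12.6 in WT FVB x BALB/c (1.73). Its KO change was -0.04. A 2152 bp region at 154845525 on chromosome 2 was a Tg-only fall, with 37.7, 45.1, 38.1 and 53.8 CPM in Tg, against 190, 170.6, 157.2 and 168.8 in WT FVB x BALB/c (-1.97). Its KO change was 0.16.

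Gene ends, with 198347 to 489743 counts per library, allowed fewer calls. The difference passed at 395 of 14876 (2.66%), 83 higher (0.558%) and 312 lower (2.1%). Of these 316 (2.12%) were Tg-only and 37 (0.249%) KO-only. In KO 0.928% of gene ends were called (0.679% higher and 0.249% lower) and in Tg 5.77% (4.53% higher and 1.24% lower), and groups did not overlap at 4.6% in KO and 9.61% in Tg. The split of the differences was 151 higher and 214 lower with library totals and 133 and 104 with offsets that follow abundance. Opposite effects were found at 10 (0.0672%): the ends of Aebp2, Ccnd1, Fnbp4, Inka2, Sptssb and Tmem88b rose in KO and fell in Tg, and those of Ghrhr, Id2, Prpsap1 and Slc12a4 did the reverse. Without Tg library 2 or WT FVB x BALB/c library 2 the number was 6, and without WT FVB x BALB/c library 1 it was 5. Ccnd1, which encodes cyclin D1 and drives entry into S phase, had 428.7, 418.4, 410.2 and 543.6 CPM at its end in KO, against 244.3, 345.9, 284.9 and 246.1 in WT C57BL/6, and 158.9, 149.6, 226.5 and 254.7 in Tg, against 388.3, 333.8, 309.2 and 266 in WT FVB x BALB/c. Neither pair overlapped (0.70 and -0.72; difference 1.42, SE 0.19, edgeR adjusted p = 6.4e-10).

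All 37 shared gene ends (0.249%) rose, led by Slc35b1 (0.91 in KO and 1.31 in Tg) and by Ntmt1, an N-terminal methyltransferase gene, which had 510.5, 451.1, 433.8 and 443.6 CPM in KO, against 244.3, 268.5, 254.3 and 214.5 in WT C57BL/6, and 641.5, 587.6, 768.2 and 699.4 in Tg, against 418, 365, 352.5 and 292 in WT FVB x BALB/c (0.92 and 0.90). The end of Fv1, a retrovirus restriction gene that differs between mouse strains, had 0 counts in every KO library. It had 33.8, 18.2, 4.38 and 22.1 CPM in WT C57BL/6, so KO was at least 1.99-fold lower with a floor of 3 counts per library. It had 43.4, 54.4, 36.9 and 62.5 in Tg, against 71.2, 48.7, 39.9 and 73.0 in WT FVB x BALB/c. Fv1 was chosen by the same rule as the other leading KO-only gene end, Mynn (1.46 in KO, -0.49 in Tg).

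Summed over whole classes, promoter counts relative to gene-end counts of the same library changed by 0.0702 (log2) in KO (two-sided exact permutation p = 0.2) and by 0.399 in Tg (exact permutation p = 0.0286, the smallest that 4 against 4 allows). The difference was -0.329 (SE 0.0866, n = 4 per group), with p = 0.0567 in a two-sided exact permutation test that shuffled labels within both backgrounds. Such shuffling assumes no effect in KO and none in Tg, so it does not test whether the effects were equal. No conclusion on the difference is drawn from it. Without KO library 4 the difference was -0.345 (exact permutation p = 0.0433). It was -0.364 without WT C57BL/6 library 4 (exact permutation p = 0.0265). Leaving out any other library kept p above 0.05, up to -0.295 with exact permutation p = 0.0931 without WT C57BL/6 library 2. The same limit holds for these fits, and no conclusion is drawn from them. For enhancer regions the difference was -0.0750 (SE 0.0510, exact permutation p = 0.321), with 0.0602 in KO and 0.135 in Tg.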

How the data were processed

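ATAC-seq was done on 50000 cells per library with 50000 Drosophila S2 cells as spike-in and 10 PCR cycles, per the labels' protocols. The authors deposited raw counts of reads per region for promoters (1231 to 2001 bp), enhancer regions (median 1750 bp, named by mm9 start) and gene ends (windows of 1001 bp). The submitters' processing notes name featureCounts for counting and mm39 as the build, and the sources used here give no version, aligner or use of the spike-in. Of 20113 gene IDs 20091 were matched to names and chromosomes in RefSeq GRCm38.p6, and no coordinates were converted.

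Each class was fitted once over the 16 libraries with edgeR 4.0.16 in R 4.3.3 (filterByExpr, TMM factors, robust quasi-likelihood test, group means as design), with contrasts for KO, Tg, their difference and their sum. Benjamini-Hochberg adjustment ran over all 20008 promoters, 16782 enhancer regions and 15186 gene ends tested, at 0.05. Chromosome Y, Xist and Tsix were left out of the fit (17, 13 and 17 regions), and chromosome X and the Kat6b interval were fitted but not reported. Library levels are counts per 1000000 (CPM) with TMM factors. Enhancer regions on chromosome Y were measured only as a summed level. Alternatives were other scalings with edgeR and limma 3.58.1, DESeq2 1.42.0, no filter, thinning to equal depth, a replicate block and leaving out each library.

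The members and lists were chosen with earlier results of these data known. Leading promoters had a mean of at least 20 CPM and libraries that did not overlap in each called comparison, and were the 5 with the largest smaller effect in each opposite or shared group and the 3 with the largest difference in each one-sided group. Enhancer regions took 3 and 2, gene ends 2 and 1. From each list up to 4 opposite or shared members were taken, and any other list member or gene end was named after its values were seen. Calls of many such members, among them Nr2f1, Dmrta2, Cdkn1a and Tubb3, were not followed under the alternatives, so their stability is not known. Every library of a group came from a separate embryo, per the series design. No pair of replicates agreed within sampling noise (24 pairs per class, lowest ratio of chi-square to degrees of freedom 1.03). The same-numbered libraries of different groups had correlations of deviations of -0.107 to 0.17, with 1 of 24 over 0.1. Between the WT groups these were 0.017 to 0.17, and 3 WT C57BL/6 libraries matched best with their own number. In the other pairs of groups at most 1 library did. The libraries were fitted as unpaired, and a pairing of the WT groups is not excluded.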

Additional observations from a re-analysis of the deposited data

Results flagged for a closer look

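The loss and gain effects differed, by the test of the difference itself, at 5763 promoters, 4641 enhancer regions and 395 gene ends. Within 1 Mb of Kat6b, outside the regions described, 13 of 22 promoters, 10 of 25 enhancer regions and 4 of 18 gene ends tested were higher in Tg than in WT FVB x BALB/c. For enhancer regions the distance was counted from the enhancer region taken to mark Kat6b.

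Among 412 groups of 4 libraries of the named regions, 21 held a library far from the other 3 by Dixon's test, which chance gives in about 1 of 20 groups. In KO these were Anxa2 at 39.6 CPM in library 1 (others 35.1 to 35.6) and Fam71f1 at 27.1 in library 3 (others 23.6 to 24.1). At gene ends KO library 4 stood apart at Ccnd1 with 544 CPM (others 410 to 429) and at Id2 with 153 (others 98.6 to 105), and KO library 3 at Fnbp4 with 189 (others 149 to 156). In WT C57BL/6 they were Crebbp at 76.8 CPM in library 2 (others 84.7 to 86.1) and Pcdha6 at 7.09 in library 4 (others 5.07 to 5.39).

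In Tg, library 2 stood apart at Bbox1 with 15.4 CPM (others 18.4 to 18.9), at Flnc with 13.6 (others 17.5 to 18.3), at Kat6a with 154 (others 139 to 141) and at Wnt5a with 81.0 (others 74.9 to 75.9). Tg library 4 did so at Car10 with 14.5 CPM (others 9.85 to 10.1) and at the enhancer region at 105385623 on chromosome 9 (mm9) with 19.8 (others 1.23 to 4.03). The same library had the highest Y signal in Tg (9.01 CPM, others 0.458 to 0.967) and the lowest Kat6b promoter level in Tg. Each of these values lay nearer to WT FVB x BALB/c than those of the other Tg libraries, and the reason was not tested. In WT FVB x BALB/c library 1 stood apart at Plxna4 with 49.0 CPM (others 44.5 to 45.2), at Zfp942 with 88.9 (others 70.1 to 72.5) and at the Slc35b1 gene end with 202 (others 173 to 177). Library 2 did so at Syt1 with 90.5 CPM (others 99.2 to 101) and at the enhancer region at 43753472 on chromosome 9 with 47.8 (others 54.0 to 55.2), library 3 at Six3 with 23.5 (others 29.4 to 30.4), and library 4 at Ccne2 with 85.5 (others 108 to 110) and Vmn2r79 with 16.4 (others 6.64 to 7.40).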

How the results depend on the processing

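Scaling turned the balance of several counts. Called promoter differences, 2443 higher and 3320 lower with TMM factors, were 3429 and 2260 with library totals and 2369 and 1862 with offsets that follow abundance. Shared promoters, 185 higher and 124 lower, were 92 and 179 with library totals and 47 and 116 with offsets, and shared enhancer regions, 682 and 324, were 332 and 436 with offsets. With gene-end factors opposite enhancer regions, 466 rising in KO and 246 falling, were 162 and 220. The gene-end differences, 83 and 312, were 133 and 104 with offsets. The median differences of the neurogenesis and zinc finger lists, 0.21 and 0.22, were both -0.12 with gene-end factors. Called promoter differences numbered 3177 after thinning. Opposite promoters numbered 29 with gene-end factors, 68 with DESeq2 and 44 after thinning, shared promoters 163 with offsets that follow abundance, 143 with gene-end factors, 149 with DESeq2 and 81 after thinning. KO-only promoters numbered 50 with gene-end factors, 74 with DESeq2 and 54 after thinning, and Tg-only promoters 2886 after thinning. Opposite enhancer regions numbered 382, 463 and 396 with gene-end factors, DESeq2 and thinning, and shared ones 539 after thinning. At gene ends, differences numbered 237, shared 12 and Tg-only 135 with offsets that follow abundance, opposite 19 with those offsets and 17 with library totals, and shared 21 after thinning. Of the 138 opposite promoters 18 were kept with gene-end factors, 36 after thinning, 67 with DESeq2, 87 with offsets and 98 with library totals, and none became shared, while 5 of the 1006 shared enhancer regions became opposite with offsets. The cause was not tested.

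Leaving out each library gave promoter counts of 5159 to 6067 differences, 86 to 144 opposite, 180 to 368 shared, 95 to 147 KO-only and 4628 to 5486 Tg-only. The enhancer counts were 4231 to 4720, 571 to 755, 872 to 1030, 946 to 1122 and 2039 to 2452 in the same order, and the gene-end counts 290 to 445, 5 to 10, 25 to 45, 26 to 38 and 225 to 368. The difference of class totals relative to gene ends ran from -0.388 to -0.291 for promoters and from -0.111 to -0.051 for enhancer regions.

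With the replicate block, opposite, shared and differing promoters numbered 128, 296 and 5793, enhancer regions 722, 1017 and 4705, and gene ends 9, 35 and 381. DESeq2 gave no adjusted p for 13 named regions, which have no DESeq2 value. Thinning to the shallowest library and the low counts at gene ends limit what could be called there.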
